A study of Mus musculus with 2 samples.

Results

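The 32 genes described here encode the actin cytoskeleton of microglia, the intermediate filament protein vimentin, and the integrins and linkers that tie the cytoskeleton to the surroundings of the cell. They are 32 of the 55450 gene rows in the deposited files, and each was found on a single gene identifier. The list was chosen with earlier results of these data known: it was selected because Vim, Lsp1 and Cnn2 were lower in the library from Hk2 cKO mice, and the other 29 genes belong to the same machinery. The differences between genotypes are therefore given as a description, with no test.

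A motile cell pushes its edge forward by adding actin monomers to branched filaments. Profilin and the thymosins hold and deliver the monomers, the ARP2/3 complex starts the branches when WASP or WAVE proteins switch it on downstream of the GTPases Cdc42 and Rac1, and cofilin takes old filaments apart. Integrins grip the matrix or other cells and are joined to actin through talin, while vimentin forms a separate and more stable filament network. Microglia use this machinery to extend and withdraw their processes, to migrate and to engulf particles.

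The cells came from the brains of C57BL/6 mice at day 3 of microglial repopulation and were sorted as CD11b high and CD45 low. Hk2 encodes hexokinase 2, the enzyme that traps glucose in the cell by phosphorylation. One group is Hk2 cKO, in which, by the breeding the labels describe, a tamoxifen-inducible Cre under the control of Cx3cr1, a gene of microglia and other mononuclear phagocytes, was combined with floxed Hk2 alleles (Cx3cr1CreER::hk2 fl/fl). The other is Hk2 fl/fl, with the same floxed alleles and no Cre. Each group is 1 library of single-cell 3' RNA tags. The labels do not state how many animals were pooled, their age at the sort, how microglia were depleted, whether tamoxifen was given in this experiment in the first days of life or later, or whether the fl/fl mice received it. No replicate stands behind any difference given here, and the genotype cannot be told apart from the library. Error ranges are 95% intervals for counting error alone, exact Poisson for a level and exact Clopper-Pearson for a share of cells. Unique molecular identifiers (UMIs) count captured RNA molecules, and a level is given as CPM, the UMIs of a gene per 1000000 UMIs of the same group of cells. Levels are compared within a gene and not between genes.

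The Hk2 cKO library held 2607 barcodes and 32896996 UMIs, and the Hk2 fl/fl library 3089 barcodes and 37476201 UMIs, with 2 barcode sequences present in both. Of these, 2300 cKO and 2824 fl/fl cells passed the filters. Microglia-like cells, named from a fixed marker list, were 2011 cKO cells (87.4% of those kept; median 12015 UMIs) and 2476 fl/fl cells (87.7%; median 10184.5 UMIs). Hk2, the targeted gene, stood at 43.5 CPM in cKO and 166 CPM in fl/fl microglia-like cells, although the floxed exons are not given in the sources used here and a 3' tag need not lie in them. Cx3cr1, whose locus carries the Cre, stood at 677 CPM in cKO and 1300.5 CPM in fl/fl cells. The defining surface gene of the gate is itself a member: Itgam encodes CD11b. The libraries also differ in a pair of genes, Gm28438 and mt-Nd3. Of the microglia-like cells, 1709 cKO and 493 fl/fl cells had UMIs of Gm28438 and none of mt-Nd3, while 4 cKO and 1208 fl/fl cells had UMIs of mt-Nd3 and none of Gm28438. A further 49 cKO and 247 fl/fl cells had UMIs of both, and the rest had UMIs of neither. Among its cells with UMIs of 1 gene alone, the fl/fl library therefore holds 2 kinds by this pair. The values of Vim below are also given for each kind, without the cells that had both or neither.

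Vimentin, the actin-binding protein LSP1 and calponin 2 were the members that stood apart between the libraries. Of the 32 members, 3 had a log2 ratio of cKO over fl/fl below -0.32 (Vim, Lsp1 and Cnn2) and 0 had one above 0.32. Among the 7815 genes that averaged 10 CPM or more in microglia-like cells, 2.41% lay below and 3.33% above these limits. Because the list was built around those 3 genes, nothing is read from this count. The log2 ratio was taken after 1 CPM was added to each level, a scale that understates the difference of a gene with few UMIs.

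Vim (ENSMUSG00000026728, chromosome 2, 13573927 to 13582826, plus strand, GRCm38) encodes vimentin, the intermediate filament protein of mesenchymal and immune cells. It measured 393 CPM (386 to 401; 11186 UMIs) in cKO and 539 CPM (531 to 547; 17648 UMIs) in fl/fl microglia-like cells, a log2 ratio of -0.45 (-0.49 to -0.42). Counted from the lowest ratio, Vim was number 57 of the 7815 genes.

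Lsp1 (ENSMUSG00000018819, chromosome 7, 142460809 to 142494867, plus strand) encodes a filament-binding protein of leukocytes with a part in their migration. It measured 117 CPM (113 to 121) in cKO and 169 CPM (164 to 173) in fl/fl cells, a log2 ratio of -0.52 (-0.59 to -0.46), number 37 from the lowest. Cnn2 (ENSMUSG00000004665, chromosome 10, 79988584 to 79996062, plus strand) encodes calponin 2, which binds actin filaments and restrains the myosin motor. It measured 41.4 CPM (39.1 to 43.9) in cKO and 61.3 CPM (58.7 to 64.0) in fl/fl cells, a log2 ratio of -0.55 (-0.67 to -0.46), number 29 from the lowest. For all 3 genes the intervals of the libraries lay apart. Of the other 29 members, those nearest to the limits were Rhob at -0.22 and, on the other side, Tmsb10 at 0.22. The log2 ratios of these 29 had a median of -0.02. Because the 3 genes were chosen for being lower, nothing is read from their distance to the rest. The median over all 32 members was -0.03, and over all measured genes it was -0.04.

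**Figure D1:**
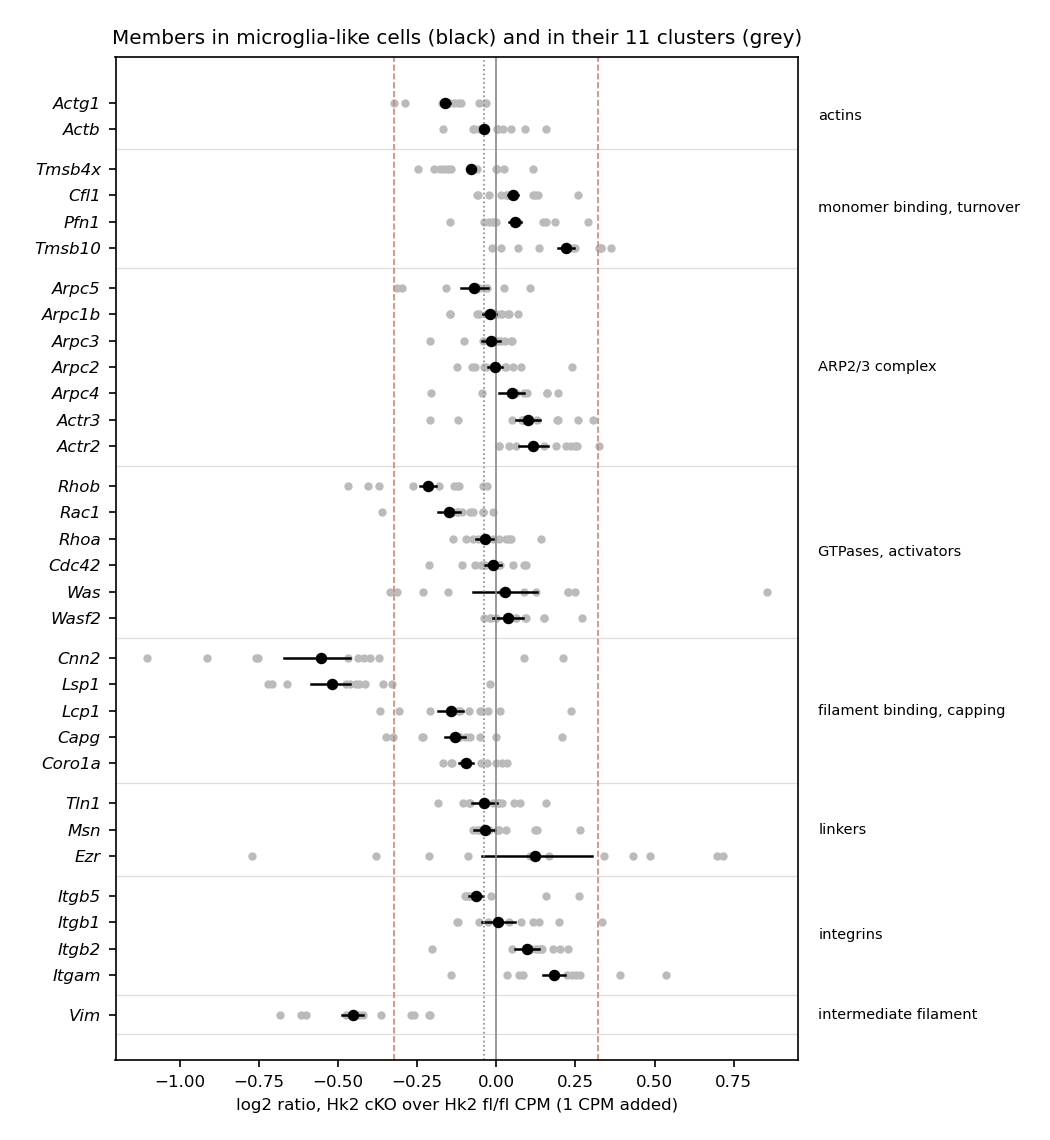
Log2 ratio of Hk2 cKO over Hk2 fl/fl CPM (horizontal axis, 1 CPM added) for the 32 members, grouped by role. Black points are the sums over microglia-like cells with 95% counting intervals, grey points the 11 microglia-like clusters, the dotted line the median of all measured genes (-0.04) and the dashed lines the limits of -0.32 and 0.32. Vim, Lsp1 and Cnn2 lie left of the lower dashed line and the other 29 members lie between the lines.

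Upstream sequence was read for 28 of the 32 members from RefSeq's promoter table (GRCm38.p6), as the 250 bases before each start. Short motifs were searched on both strands. The CArG box, the binding site of serum response factor, a regulator of many actin genes, was present in 3 of 28 windows (10.7%), those of Cnn2, Actg1 and Arpc4, and in 378 of 27025 promoters of the whole table (1.40%). The windows of those 3 genes are shown because they place 1 gene below the lower limit (Cnn2) beside 2 with the same box that were not; capitals mark the box, and bases that GENCODE counts as transcribed were cut off.
Cnn2, chr10:79988350-79988583, plus strand: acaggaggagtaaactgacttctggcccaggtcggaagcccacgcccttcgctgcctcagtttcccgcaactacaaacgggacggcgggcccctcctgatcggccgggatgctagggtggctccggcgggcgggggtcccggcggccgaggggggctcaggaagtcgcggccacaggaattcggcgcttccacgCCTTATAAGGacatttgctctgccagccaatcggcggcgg
Actg1, chr11:120348543-120348745, minus strand: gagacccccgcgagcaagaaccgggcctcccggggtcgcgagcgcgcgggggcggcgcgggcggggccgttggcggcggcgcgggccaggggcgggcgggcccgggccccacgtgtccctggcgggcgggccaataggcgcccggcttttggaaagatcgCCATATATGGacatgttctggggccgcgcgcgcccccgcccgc
Arpc4, chr6:113377863-113378112, plus strand: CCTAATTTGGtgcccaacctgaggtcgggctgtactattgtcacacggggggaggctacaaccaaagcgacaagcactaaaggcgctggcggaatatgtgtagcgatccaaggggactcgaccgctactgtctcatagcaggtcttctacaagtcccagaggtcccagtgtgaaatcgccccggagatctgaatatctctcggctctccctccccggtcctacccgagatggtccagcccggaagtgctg
The box ended 46 bases before the RefSeq start in Cnn2, 80 bases before it in Actg1 and 240 bases before it in Arpc4. The letters TATAAA were found in 2 of 28 windows, those of Vim and Cdc42, against 3504 of the 27025 promoters. In Vim they ended 26 bases before the RefSeq start and are shown in capitals with 12 bases on each side; GENCODE M21 has a Vim start 384 bases further upstream, so this stretch lies inside the gene as GENCODE draws it.
Vim, chr2:13574267-13574296, plus strand: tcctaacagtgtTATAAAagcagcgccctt
The letters GGGCGG, bound by SP1, were in 20 of 28 windows (71.4%), against 32.9% of all promoters. The members' windows had a median G and C content of 61.0%, and that of all promoters was not computed. A member's window was the one nearest its GENCODE start. For all promoters it was the first listed per gene, whether or not the gene was measured here. The shares of all 3 motifs thus compare unlike sets, and nothing is read from them. A match is a description of letters in a window and not a measured binding site. In these microglia-like cells Actg1 had a log2 ratio of -0.16 and Arpc4 of 0.05, against -0.55 for Cnn2, so the members with a CArG box did not share 1 ratio.

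Vim was lower in cKO in every cluster of microglia-like cells, and Lsp1 was lower in each but near level in cluster 0. Because Vim, Lsp1 and Cnn2 were chosen for being lower over the same microglia-like cells, nothing is read from their counts of clusters. These cells fell into 11 clusters that were made without the 32 members among the clustering genes, each with at least 50 cells in both libraries. Vim was lower in cKO in 11 of 11 clusters, with log2 ratios from -0.68 to -0.21 and an interval below 0 in each. In cluster 12, led by Ch25h and Cxcl2 and with the most cells over both libraries, Vim stood at 466 CPM in cKO and 647 CPM in fl/fl cells. In cluster 11, led by Vaultrc5, it stood at 477 CPM in cKO and 767 CPM in fl/fl cells, and in cluster 7, led by Top2a, at 480 CPM in cKO and 556 CPM in fl/fl cells.

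Lsp1 was lower in 11 of 11 clusters, with intervals below 0 in 10. The exception was cluster 0, led by the interferon-response gene Ifit3, at 121 CPM in cKO and 122 CPM in fl/fl cells; this cluster held 325 cKO and 83 fl/fl cells. Cluster 9, led by Cenpa, had the lowest Lsp1 ratio, at 117 CPM in cKO and 193 CPM in fl/fl cells. Cnn2 was lower in 9 of 11 clusters, with intervals below 0 in 8 and log2 ratios from -1.10 to 0.21. Its 2 higher clusters were cluster 0 (31.6 CPM in cKO and 27.2 CPM in fl/fl cells; 131 and 22 UMIs) and cluster 11 (49.0 CPM in cKO and 46.1 CPM in fl/fl cells), and their intervals crossed 0.

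**Figure D2:**
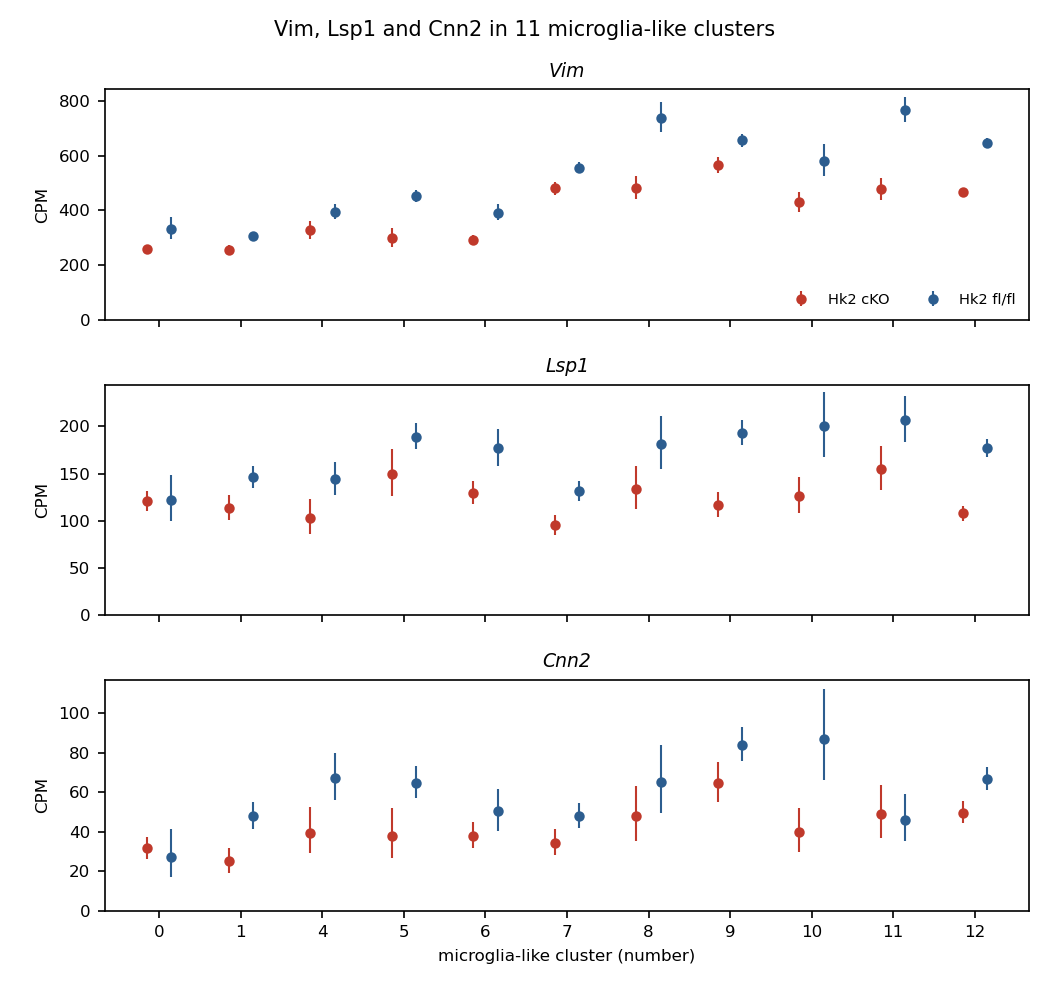
Level in CPM (vertical axes, from 0) of Vim, Lsp1 and Cnn2 in each of 11 microglia-like clusters (horizontal axis) in Hk2 cKO (red, left of each pair) and Hk2 fl/fl (blue, right); bars are 95% Poisson intervals. The cKO point is lower in all 11 pairs for Vim and for Lsp1 and in 9 of 11 for Cnn2.

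The lower levels came with fewer cells in which the transcripts were seen. With each cell thinned to 5000 UMIs (1831 cKO and 2256 fl/fl cells; 180 cKO and 220 fl/fl shallower cells were left out), a Vim UMI was found in 67.3% (65.1 to 69.5) of cKO and 77.5% (75.7 to 79.2) of fl/fl cells. At least 5 Vim UMIs were found in 9.39% (8.10 to 10.8) of cKO and 17.6% (16.0 to 19.2) of fl/fl cells, so the upper end of the distribution was thinner too. An Lsp1 UMI was found in 42.6% (40.3 to 44.9) of cKO and 50.9% (48.8 to 53.0) of fl/fl cells. For Cnn2 the shares were 18.5% (16.7 to 20.3) in cKO and 25.1% (23.4 to 27.0) in fl/fl cells. Unthinned, the shares were 80.4% in cKO and 84.2% in fl/fl cells for Vim, 63.3% in cKO and 69.9% in fl/fl cells for Lsp1, and 35.1% in cKO and 44.1% in fl/fl cells for Cnn2. No class in the sort is known to lack these genes; endothelial-like cells, at median depths of 6129 UMIs in cKO and 6889 UMIs in fl/fl, gave an Lsp1 UMI in 15 of 64 cKO and 17 of 34 fl/fl cells thinned to 5000 UMIs.

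Vim differed between the 2 kinds of fl/fl cells. The interval of the ratio between these cells was off 0 for 23 of the 32 members. Many of these ratios were small, and only that of Vim lay beyond the limits of -0.32 and 0.32. The same shares were not computed over all measured genes, so nothing is read from the count. Vim stood at 396 CPM in the 1709 cKO cells with Gm28438 alone. It stood at 640.3 CPM in the 493 fl/fl cells with Gm28438 alone and at 496 CPM in the 1208 fl/fl cells with mt-Nd3 alone, a log2 ratio of 0.37 (0.31 to 0.42) between these fl/fl cells, at median depths of 10919 and 10963 UMIs. The cKO cells were thus below both kinds of fl/fl cells, with a log2 ratio of -0.69 against those with Gm28438 alone and of -0.32 against those with mt-Nd3 alone. Lsp1 went the other way within fl/fl, at 151 CPM with Gm28438 alone and 174 CPM with mt-Nd3 alone, against 118 CPM in the cKO cells. Cnn2 stood at 42.3 CPM in the cKO cells, 58.2 CPM in fl/fl cells with Gm28438 alone and 64.3 CPM in fl/fl cells with mt-Nd3 alone. The 2 kinds were spread unevenly over the clusters, with Gm28438-alone cells making up 12.7% of those of either kind in cluster 5 and 57.1% in cluster 4 of the fl/fl library, and Vim itself varied 2.51-fold over the fl/fl clusters. What the pair marks, and its part and that of the clusters in the Vim value, was not tested.

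The other actin-binding genes of the same role were closer between the libraries. Lcp1, which encodes the filament-bundling protein L-plastin, measured 321 CPM in cKO and 354 CPM in fl/fl cells (log2 ratio -0.14). Capg, which encodes a protein that caps filament ends, measured 542 CPM in cKO and 593 CPM in fl/fl cells (-0.13). Coro1a, which encodes the leukocyte coronin, measured 967 CPM in cKO and 1033 CPM in fl/fl cells (-0.10). The other 2 members of this role, Lsp1 and Cnn2, were chosen for being lower, so no count is read for the role, and 61.4% of all measured genes were lower. In the 147 cKO and 202 fl/fl cells without neutrophil, monocyte or endothelial marker UMIs, Capg had a ratio of 0.02. That filter left few cells: 1586 of 2011 cKO and 1941 of 2476 fl/fl microglia-like cells had a neutrophil marker UMI. Of those markers Csf3r was highest, at 119 CPM in cKO and 125 CPM in fl/fl microglia-like cells. No interval was made for ratios in the cells left, here or below. Coro1a overlaps exons of Bola2 on the other strand.

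The actins themselves differed little. Actb, which encodes beta-actin, measured 12369 CPM in cKO and 12712 CPM in fl/fl cells (log2 ratio -0.04). Actg1, which encodes gamma-actin, measured 2483 CPM in cKO and 2776 CPM in fl/fl cells (-0.16) and was lower in 11 of 11 clusters, with intervals below 0 in 9. Actb was lower in 5 clusters and higher in 6, so its direction depended on the cluster.

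Among the genes that handle actin monomers, Tmsb10 and Tmsb4x, both of which encode thymosins that sequester monomers, pointed in opposite directions. Tmsb10 measured 866 CPM in cKO and 744 CPM in fl/fl cells (log2 ratio 0.22, 0.19 to 0.25), the highest ratio of the 32, and was higher in 10 of 11 clusters, with intervals above 0 in 8. Tmsb4x measured 41514 CPM in cKO and 43867 CPM in fl/fl cells (-0.08). Pfn1, which encodes the monomer-delivering profilin 1, measured 1387 CPM in cKO and 1332 CPM in fl/fl cells (0.06), and Cfl1, which encodes cofilin 1, a filament-severing protein, 1840.2 CPM in cKO and 1774 CPM in fl/fl cells (0.05).

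The 7 members of the ARP2/3 complex had log2 ratios from -0.07 to 0.12, with 4 lower and 3 higher. Actr2 and Actr3, which encode the actin-related proteins that form the start of a new branch, were the upper end. Actr2 measured 255 CPM in cKO and 235 CPM in fl/fl cells (0.12) and was higher in 11 of 11 clusters, with intervals above 0 in 4. Between the Gm28438-alone cells of both libraries its direction turned, with a ratio of -0.05. Actr3 measured 375 CPM in cKO and 349.8 CPM in fl/fl cells (0.10). Arpc5, which encodes a small subunit, was the lower end, at 290.3 CPM in cKO and 305 CPM in fl/fl cells (-0.07). The subunit genes Arpc1b, Arpc2, Arpc3 and Arpc4 had ratios of -0.02, -0.00, -0.02 and 0.05; Arpc4 shares exons on its strand with Ttll3, and Arpc1b overlaps Pdap1 on the other strand, so their counts are less certain.

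Of the GTPases, Rhob and Rac1 were lower and Cdc42 and Rhoa were nearly level. Rhob, which encodes a short-lived GTPase of endosomes, measured 776 CPM in cKO and 901 CPM in fl/fl cells (log2 ratio -0.22, -0.24 to -0.19) and was lower in 11 of 11 clusters, with intervals below 0 in 7. Rac1, whose product drives sheet-like protrusions through WAVE, measured 399.7 CPM in cKO and 443 CPM in fl/fl cells (-0.15) and was lower in 11 of 11 clusters, with intervals below 0 in 2. Its ratio was 0.10 in the 147 cKO and 202 fl/fl cells without neutrophil, monocyte or endothelial marker UMIs. Rac1 overlaps Daglb on the other strand. Rhoa, whose product drives contraction through myosin, had a ratio of -0.04 and Cdc42, whose product drives finger-like protrusions through WASP, -0.01. The activators Wasf2, which encodes WAVE2, and Was, which encodes WASP, had ratios of 0.04 and 0.03.

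The integrin genes of the complement receptor were somewhat higher. Itgam measured 472 CPM in cKO and 416 CPM in fl/fl cells (log2 ratio 0.18, 0.15 to 0.22) and Itgb2, which encodes its beta partner, 381 CPM in cKO and 356 CPM in fl/fl cells (0.10, 0.06 to 0.13). Each was higher in 10 of 11 clusters, with intervals above 0 in 8 for Itgam and in 5 for Itgb2. Itgb2 turned to -0.20 in the 147 cKO and 202 fl/fl cells without neutrophil, monocyte or endothelial marker UMIs. Itgam was lower in cluster 9, at 319 CPM in cKO and 353 CPM in fl/fl cells. Itgam is the gene of the sort marker, and it shares exons on its strand with Gm49368. Itgb5, which encodes a beta chain that pairs with the alpha V integrin, measured 1100 CPM in cKO and 1151 CPM in fl/fl cells (-0.06), and Itgb1, the beta chain of many matrix receptors, 202 CPM in cKO and 201 CPM in fl/fl cells (0.01). The linkers were close between libraries: Msn (moesin, which joins actin to the membrane) and Tln1 (talin 1, which activates integrins) had ratios of -0.04 each, and Ezr (ezrin), with 528 cKO and 556 fl/fl UMIs, had a ratio of 0.12 with an interval from -0.05 to 0.30.

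A wider set of the same machinery, 117 further genes in 7 lists, was measured the same way. Of the 92 that were measured at this level, 62 were lower and 30 higher in cKO, with a median log2 ratio of -0.03. Of all 7815 measured genes, 61.4% were lower. Below the lower limit were 4 of the 92 and above the upper limit 1, against 2.41% and 3.33% of all measured genes. Cd44, which encodes a hyaluronan receptor, measured 27.4 CPM in cKO and 44.5 CPM in fl/fl cells (-0.68), and Itga4, an integrin alpha chain of leukocyte homing, 12.4 CPM in cKO and 20.0 CPM in fl/fl cells (-0.64). The other two were Iqgap1, a scaffold for Rac and Cdc42, at 114 CPM in cKO and 143 CPM in fl/fl cells (-0.33), and Tpm1, a tropomyosin, at 15.9 CPM in cKO and 20.2 CPM in fl/fl cells (-0.33). Above the upper limit was Itgax, the CD11c integrin chain, at 28.4 CPM in cKO and 19.4 CPM in fl/fl cells (0.53).

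Inside 6 of the lists the ends were as follows. Among other filament bundling and myosin genes, 11 of 16 were lower, with Flna (filamin A, a filament cross-linker) at -0.24 and Tpm4 at -0.16 after Tpm1, and Tpm3 and Myl12b at 0.11. Among other actin turnover and capping genes, 12 of 19 were lower, from Gsn (gelsolin) at -0.25, Coro7 at -0.21 and Capzb at -0.13 to Cap1 at 0.20. Among other ARP2/3, WASP and WAVE genes, 9 of 13 were lower, from Abi2 at -0.27 to Cyfip1 at 0.07. Among other integrins and adhesion genes 11 of 20 were lower, with Pxn (paxillin) at -0.18 as the third lowest and Tln2 at 0.22 and Itga9 at 0.21 after Itgax. The other intermediate filament genes gave -0.26 for Lmna, -0.07 for Lmnb1 and 0.01 for Nes; Lmna, at 31.5 CPM in cKO and 37.8 CPM in fl/fl cells, did not reach the lower limit. Of the targets and partners of serum response factor, 4 of 10 listed genes were measured, with ratios of -0.14 for Srf itself, -0.06 for Filip1l, 0.02 for Egr1 and 0.05 for Vcl.

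Over the microglia-like clusters, the members fell into opposing patterns that the libraries shared. The largest spread was that of Rhob, which ran from 126 CPM in cluster 8 to 1737 CPM in cluster 1 of the cKO library (13.8-fold) and from 156 CPM in cluster 10 to 1774 CPM in cluster 1 of the fl/fl library (11.4-fold). Cluster 1 is led by Otud1 and Klf2, and clusters 8 and 10 are led by Pbk and by Fam213b. Capg ran the other way, from 255 CPM in cluster 1 to 1062 CPM in cluster 8 of the cKO library (4.17-fold) and from 299 CPM in cluster 1 to 1134 CPM in cluster 8 of the fl/fl library (3.79-fold). Over all 32 members the median spread from the lowest to the highest cluster was 1.65-fold in cKO and 1.77-fold in fl/fl.

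Over the 22 profiles (11 clusters in each library), the log2 levels of Arpc1b and Tmsb4x had a Pearson correlation of 0.98, Pfn1 and Capg of 0.96, and Coro1a and Capg of 0.96. Rhob had a correlation of -0.91 with Arpc4, -0.91 with Arpc3, -0.90 with Arpc1b and -0.88 with Tmsb4x. The same opposition was seen across cells thinned to 5000 UMIs, where Rhob and Tmsb4x had a correlation of -0.49 in 1831 cKO and -0.48 in 2256 fl/fl cells, and Actb and Tmsb4x of 0.62 in cKO and 0.63 in fl/fl cells. These are descriptions: the profiles share a library and its normalization to a total, Tmsb4x and Actb alone make up 73.8% of the members' UMIs in cKO and 74.2% in fl/fl microglia-like cells, and cells of 1 library are not independent samples. Clusters 8 and 10 also had low median depths, 8318 and 5843 UMIs in cKO and 8174 and 6655 UMIs in fl/fl, and the part of depth in the pattern was not tested.

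**Figure D3:**
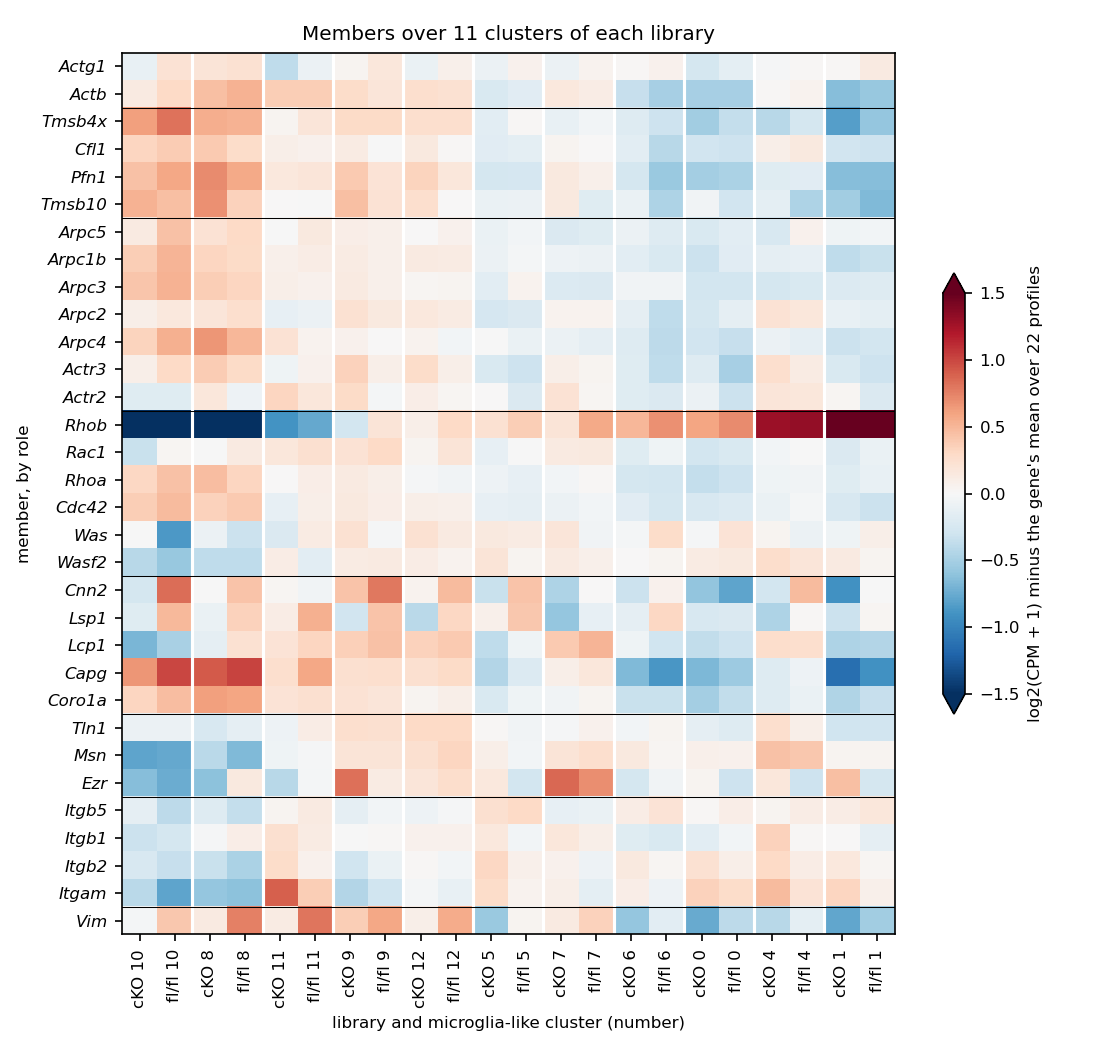
Level of each member (rows, grouped by role) in each microglia-like cluster of the Hk2 cKO and Hk2 fl/fl libraries (columns, in pairs with cKO left, ordered by the fl/fl level of Rhob), as log2(CPM + 1) minus the gene's mean over the 22 columns. Rhob increases from left to right while Capg, Pfn1, Tmsb4x and most ARP2/3 genes decrease, in both libraries; for Vim the left column of each pair is the lower.

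The genes whose cluster profile was most like that of Vim were Anxa2 (Pearson correlation 0.93; annexin A2, which binds membranes and actin), Ybx1 (0.92), Pdap1 (0.91), Eif4ebp1 (0.90) and mt-Nd1 (0.89), out of 2923 candidates with a mean of at least 50 CPM. Anxa2 measured 46.3 CPM in cKO and 62.3 CPM in fl/fl cells (log2 ratio -0.42). For Lsp1 they were Gdi2 (0.86), Mir703 (0.80), Eif4b (0.80), mt-Nd4 (0.77) and Rpl23a (0.77). For Cnn2 they were Capzb (0.78), which encodes a subunit of the capping protein, Arhgdib (0.77), Rpl23a (0.75), Smim11 (0.74) and Csnk1g2 (0.74). Each of the 14 different genes was itself lower in cKO, as were 61.4% of all measured genes. The 22 profiles hold both libraries, so differences between the libraries enter these correlations, and their part was not tested. Among the 3 genes themselves, the profiles of Vim and Cnn2 correlated at 0.70, Lsp1 and Cnn2 at 0.66, and Vim and Lsp1 at 0.53. The 3 genes were chosen for a shared difference between the libraries, which enters these values, so nothing is read from them.

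G2/M-positive and S-positive cells carried more of most members than cells positive for neither phase, in both libraries. Cells thinned to 5000 UMIs were called G2/M-positive when they had UMIs of at least 3 of 12 G2/M genes, none of them a member; 515 cKO and 786 fl/fl cells were positive, and 1083 cKO and 1169 fl/fl cells were positive for neither G2/M nor S genes. In G2/M-positive over neither, 26 of 32 members were higher in cKO with a median log2 ratio of 0.20, and 24 of 32 in fl/fl with a median of 0.17. Over all measured genes the medians were -0.02 in cKO and 0.01 in fl/fl, with 47.9% higher in cKO and 50.7% in fl/fl. In S-positive cells outside G2/M (233 cKO and 301 fl/fl) over neither, 25 of 32 members were higher in cKO and 23 of 32 in fl/fl. Their median was 0.15 in each library, against 0.005 in cKO and 0.035 in fl/fl over all measured genes, of which 50.5% and 54.1% were higher. The pattern was thus not particular to G2/M. G2/M-positive cells were deeper than cells positive for neither, with medians of 14977 against 11866 UMIs in cKO and 13310 against 9323 UMIs in fl/fl. S-positive cells outside G2/M were deeper too, at 16142 UMIs in cKO and 12499 UMIs in fl/fl, and the part of depth was not tested.

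Vim had a G2/M ratio of 0.75 in cKO and 0.35 in fl/fl. Capg had a ratio of 0.65 in cKO and 0.52 in fl/fl, followed by Ezr with 0.59 in cKO and 0.50 in fl/fl, Pfn1 with 0.53 in cKO and 0.41 in fl/fl, and Lcp1 with 0.45 in cKO and 0.44 in fl/fl. Actb had a ratio of 0.44 in cKO and 0.32 in fl/fl, while Actg1 was near level at 0.03 in cKO and -0.01 in fl/fl. The members that went the other way in both libraries were Rhob (-0.85 in cKO and -0.59 in fl/fl) and the integrin genes Itgam (-0.37 in cKO and -0.30 in fl/fl), Itgb2 (-0.31 in cKO and -0.17 in fl/fl) and Itgb5 (-0.23 in cKO and -0.26 in fl/fl), with Lsp1 (-0.16 in cKO and -0.08 in fl/fl). Of the integrins, Itgb1 alone was higher in G2/M-positive cells of both libraries (0.08 in each).

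The Vim difference between genotypes was unequal over the cycle groups. In G2/M-positive cells Vim stood at 524 CPM in cKO and 601 CPM in fl/fl, a log2 ratio of -0.20 (-0.25 to -0.14). In S-positive cells outside G2/M it stood at 383 CPM in cKO and 593 CPM in fl/fl (-0.63, -0.72 to -0.54). In cells positive for neither it stood at 312 CPM in cKO and 472 CPM in fl/fl (-0.60, -0.65 to -0.54). The interval of the G2/M-positive cells lay apart from the other 2, by counting error alone, and no test of this difference was possible with 1 library per genotype. Lsp1 had ratios of -0.57, -0.62 and -0.48 and Cnn2 of -0.45, -0.54 and -0.58 in G2/M-positive, S-positive and neither, with intervals that overlapped.

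**Figure D4:**
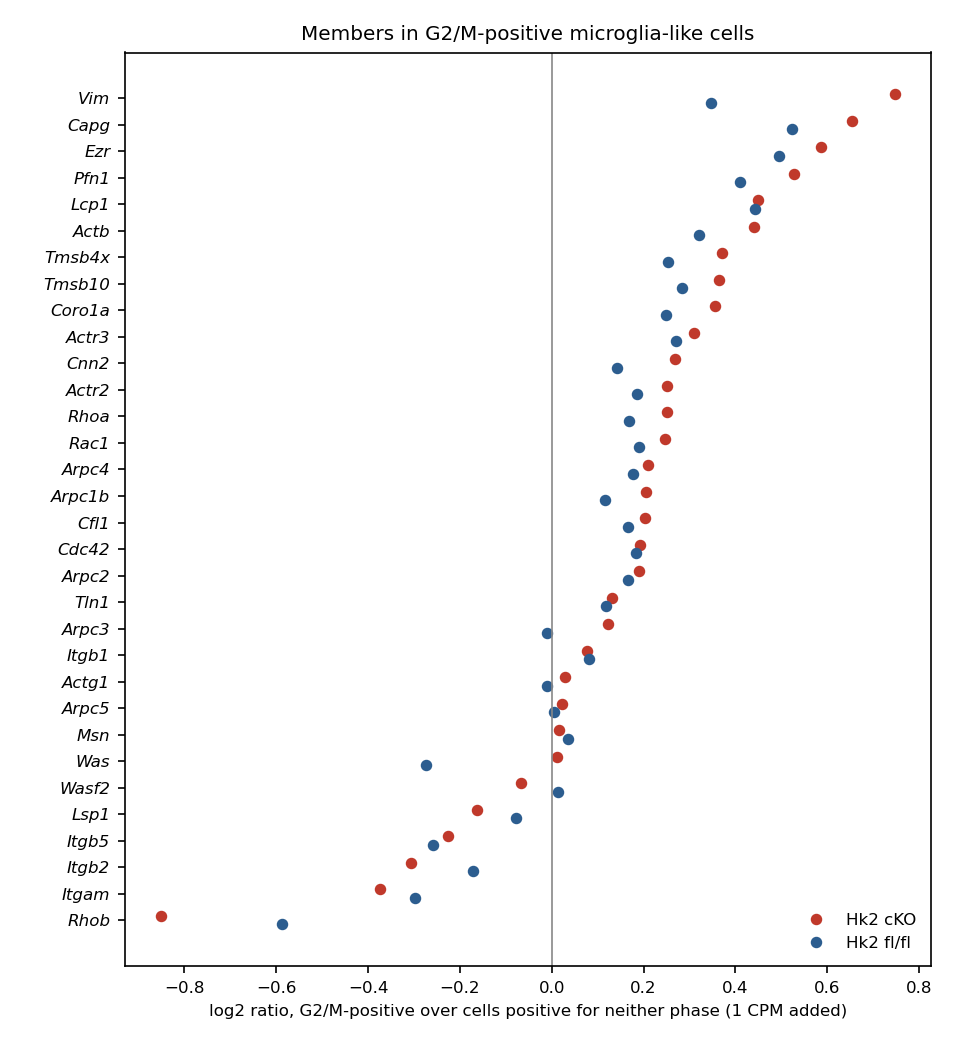
Log2 ratio of CPM in G2/M-positive over microglia-like cells positive for neither phase (horizontal axis, 1 CPM added) for each member, with Hk2 cKO in red (above) and Hk2 fl/fl in blue (below), ordered by the cKO value. Vim has the widest gap between libraries at the top, with 0.75 in cKO and 0.35 in fl/fl, and Rhob lies lowest in both.

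The other cells in the sort carried several members at levels far from those of microglia. They were few: 36 cKO and 56 fl/fl cells were MHC class II and dendritic-like, 34 cKO and 77 fl/fl monocyte-like, 89 cKO and 82 fl/fl neutrophil-like, 23 cKO and 16 fl/fl osteoclast type-like, and 92 cKO and 53 fl/fl endothelial-like. Pericyte and smooth muscle-like and choroid plexus and ependyma-like cells, with 6 to 19 per library, were not analysed here, so the order below covers 6 classes. Of these, Vim was highest in osteoclast type-like cells, at 4323 CPM in cKO and 4409 CPM in fl/fl, then in monocyte-like cells, at 2660.3 CPM in cKO and 2222 CPM in fl/fl, and in MHC class II and dendritic-like cells, at 1661 CPM in cKO and 1404 CPM in fl/fl. In the order of levels, endothelial-like cells (593 CPM in cKO and 705 CPM in fl/fl) and neutrophil-like cells (483 CPM in cKO and 570 CPM in fl/fl) came next, with microglia-like cells last in each library. In the fl/fl library the neutrophil-like interval (523 to 619) overlapped that of microglia-like cells (531 to 547), so this last step does not exceed counting error.

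Lsp1 was highest in monocyte-like cells, at 896 CPM in cKO and 854 CPM in fl/fl, and in MHC class II and dendritic-like cells, at 729 CPM in cKO and 673 CPM in fl/fl. In osteoclast type-like cells it was lowest, at 28.0 CPM in cKO and 83.1 CPM in fl/fl. Cnn2 was highest in neutrophil-like cells, at 263 CPM in cKO and 261 CPM in fl/fl, then in monocyte-like cells, at 189 CPM in cKO and 173 CPM in fl/fl. Thus the 3 genes that stood apart between genotypes in microglia-like cells each had their highest level outside the microglia-like class. In monocyte-like and in MHC class II and dendritic-like cells, none of the 3 was lower in cKO. Vim was also lower in cKO in osteoclast type-like, endothelial-like and neutrophil-like cells, and Lsp1 in osteoclast type-like cells. These classes held few cells, and no interval is given here for these directions.

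Among the other members, Tmsb10 stood out in monocyte-like cells, at 4580.5 CPM in cKO and 3175 CPM in fl/fl. Coro1a was lowest in osteoclast type-like cells, at 220.4 CPM in cKO and 349 CPM in fl/fl, where Capg was highest, at 1072 CPM in cKO and 931 CPM in fl/fl. Rhob and Itgb5 were highest in microglia-like cells in both libraries. In monocyte-like cells Rhob stood at 45.2 CPM (11 UMIs) in cKO and 327 CPM in fl/fl, and Itgb5 at 24.7 CPM (6 UMIs) in cKO and 336 CPM in fl/fl.

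These classes hold unlike amounts of microglial RNA, given here beside those values. Added together, the microglial genes Fcrls, P2ry12, Siglech and Tmem119 reached 65.8 CPM in cKO and 1006 CPM in fl/fl monocyte-like cells, to 1029 CPM in cKO and 1404 CPM in fl/fl MHC class II and dendritic-like cells, and to 560 CPM in cKO and 928 CPM in fl/fl osteoclast type-like cells. In neutrophil-like cells the sums were 1201 CPM in cKO and 1242 CPM in fl/fl, in endothelial-like cells 1814 CPM in cKO and 1845 CPM in fl/fl, and in microglia-like cells 2750.5 CPM in cKO and 2697 CPM in fl/fl. The monocyte-like class also pools clusters 16 and 17. Cluster 16, led by Plac8, F13a1 and Ly6c2, held 21 cKO and 63 fl/fl cells. Cluster 17, led by Ear2, Ace and Stap1, held 13 cKO and 14 fl/fl cells. A genotype ratio within monocyte-like cells therefore compares cells of unlike microglial content and an unlike mix of clusters. The part of either in the result was not tested.

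**Figure D5:**
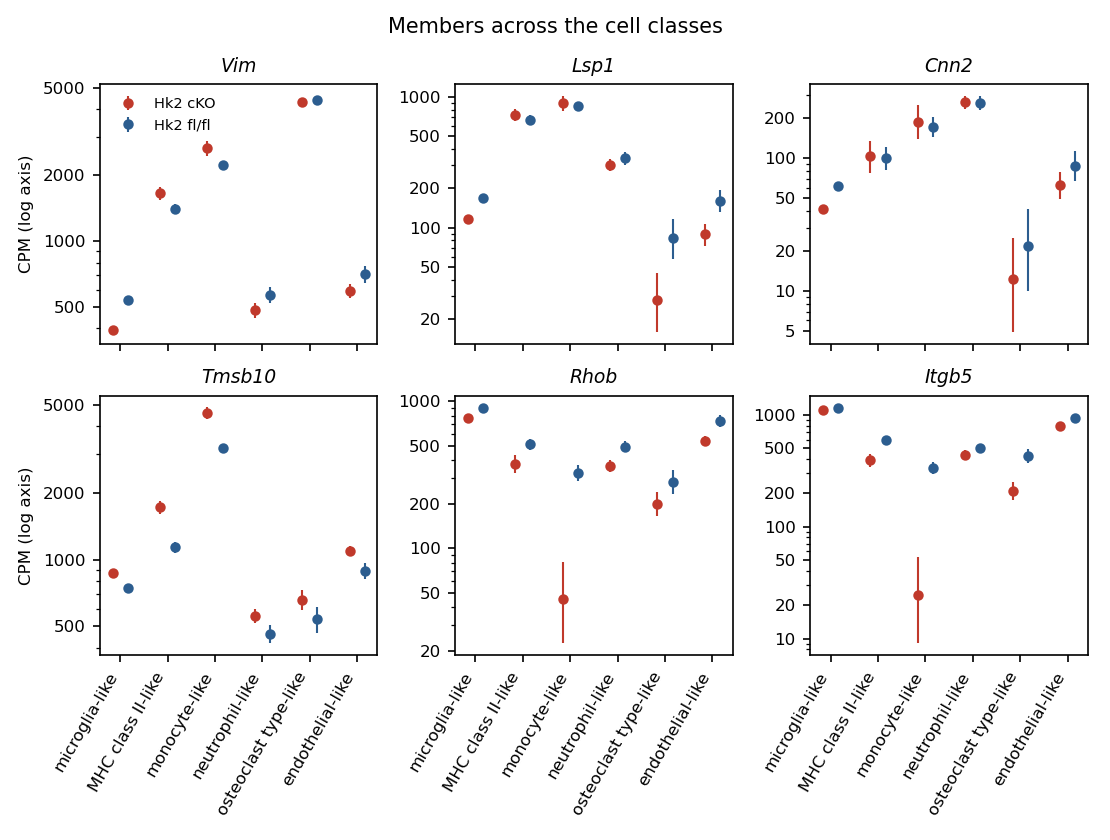
Level in CPM (vertical log axes) of Vim, Lsp1, Cnn2, Tmsb10, Rhob and Itgb5 in 6 cell classes (horizontal axis) in Hk2 cKO (red, left) and Hk2 fl/fl (blue, right); bars are 95% Poisson intervals. Vim, Lsp1 and Cnn2 are lower in cKO microglia-like cells, and Rhob and Itgb5 of monocyte-like cells are far apart between the libraries, at 45.2 and 24.7 CPM in cKO.

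Since Vim, Lsp1 and Cnn2 are high in monocyte-like or neutrophil-like cells, the markers of such cells were measured among microglia-like cells. Of 12 monocyte markers 9 were lower in cKO, but the sum was 196 CPM in cKO and 157 CPM in fl/fl, because Plac8 (33.7 CPM in cKO and 4.85 CPM in fl/fl), Ms4a4c (37.1 CPM in cKO and 21.4 CPM in fl/fl) and Fn1 (60.5 CPM in cKO and 44.7 CPM in fl/fl) were higher. Of the 9 lower markers S100a4 had the highest level, at 55.6 CPM in cKO and 73.6 CPM in fl/fl. The markers Ly6c2 and Ccr2 stood at 0.25 and 2.50 CPM in cKO and at 0.61 and 2.72 CPM in fl/fl, and none of the 12 was at 0. Of 8 border macrophage markers 7 were lower in cKO, with a sum of 20.8 CPM in cKO and 31.2 CPM in fl/fl. Of 12 neutrophil markers 3 were lower, with a sum of 184 CPM in cKO and 171 CPM in fl/fl. In the 621 cKO and 890 fl/fl microglia-like cells with no UMI of any monocyte or border macrophage marker, a comparison added after these values were seen, the log2 ratios were -0.45 for Vim, -0.44 for Lsp1 and -0.76 for Cnn2. The part of other cells in the difference was not tested.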

How the data were processed

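The deposited values are raw UMI counts per gene and cell barcode, made by the authors with bcl2fastq and Cell Ranger 3.1.0 on GRCm38, per the submitters' processing notes. The gene annotation and the use of strand are not given in the sources used here. Each of the 55450 identifiers was found in GENCODE M21, which gave coordinates and overlaps. Depth was 32896996 UMIs in the Hk2 cKO library and 37476201 UMIs in the Hk2 fl/fl library.

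Barcodes were kept from 500 genes upward if mitochondrial counts did not exceed 10%. Scrublet called 1 cKO and 2 fl/fl cells, too few for the caller to have worked, so doublets largely remain. Cells were clustered with scanpy 1.11.5 (2000 variable genes without the 32 members, 30 components, 15 neighbours, Leiden resolution 0.8) and named from marker lists. Because the names were rebuilt here, cell numbers may differ from those of the study. Counts were summed per library and class or cluster and scaled to CPM, and the log2 ratio was taken after adding 1 CPM; genes averaging 10 CPM or more were called measured. Poisson and binomial intervals came from scipy 1.17.1. They cover counting error only, and with 1 library per genotype no test was made. The calculation was checked on simulated data.

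The members and all lists were chosen with earlier results of these data known, and the marker and pathway lists draw on an earlier session's tables. From each further list, the 3 lowest and 3 highest measured genes were open to naming, and for Vim, Lsp1 and Cnn2 the 5 genes of most similar profile. Alternatives covered scaling (TMM in edgeR 4.0.16), the added CPM, filters, thinning, clustering, cycle state, marker UMIs, the pair Gm28438 and mt-Nd3, and the fold. The result of 1 further list is not reported here on its own.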

Additional observations from a re-analysis of the deposited data

Results flagged for a closer look

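In 13 cases a member's log2 ratio of cKO over fl/fl in another cell class had the opposite sign to that in microglia-like cells, with counting intervals off 0 in both. These differences were not tested, since each genotype has 1 library. The cases were picked from comparisons of all members in every other class analysed. A matching count over all measured genes was not made, so nothing is read from the number of cases. In MHC class II and dendritic-like cells the ratios were 0.24 for Vim, 0.29 for Capg and 0.068 for Actb, against -0.45, -0.13 and -0.04 in microglia-like cells. In monocyte-like cells they were 0.26 for Vim, 0.38 for Arpc5, 0.35 for Msn and -0.22 for Cfl1, against -0.45, -0.07, -0.04 and 0.05 in microglia-like cells. In osteoclast type-like cells they were -0.74 for Itgam, -0.42 for Itgb2, -0.24 for Cfl1 and 0.20 for Capg, against 0.18, 0.10, 0.05 and -0.13 in microglia-like cells. Lcp1 had a ratio of 0.23 in neutrophil-like cells against -0.14 in microglia-like cells, and Actr3 of -0.27 in endothelial-like cells against 0.10. These classes held 16 to 92 cells per library. Their content of microglial RNA differed between the libraries, most in monocyte-like cells, which also pool clusters 16 and 17 in unlike shares. The part of either in the ratios was not tested.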

How the results depend on the processing

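The log2 ratios of the 32 members were recomputed under 17 alternatives, of which 1 (cells without monocyte or border macrophage marker UMIs) was chosen after seeing the data. Vim ranged from -0.69 to -0.32 and was below the limit of -0.32 in 16 of 17, falling just short at clustering resolution 0.4. At that resolution no cluster was named osteoclast type-like, the class in which Vim was highest. The microglia-like class then held 2034 cKO and 2492 fl/fl cells, against 2011 and 2476, and the part of the added cells was not tested. Lsp1 ranged from -0.82 to -0.36 and Cnn2 from -0.81 to -0.45, both below the limit in 17 of 17. The members' median was 0.022 in the 147 cKO and 202 fl/fl cells without neutrophil, monocyte or endothelial marker UMIs, where 5 members lay below the lower and 1 above the upper limit. Against the reported -0.029, it was -0.060 with Gm28438-alone cells of both libraries, 0.0014 with cKO Gm28438-alone cells against fl/fl mt-Nd3-alone cells, and -0.058 without monocyte or border macrophage marker UMIs; it lies near 0 and changed sign in 2 of these. With a limit of 1.5-fold, 0 members were lower. The causes were not tested, apart from the fewer cells and the wider fold that these alternatives bring by construction. Of the 32 members 12 kept their sign in all 17 alternatives and 20 turned in at least 1, so small ratios near 0 have no firm direction. With TMM scaling 17 members were lower and 15 higher, against 20 and 12. The comparison within cells with Xist UMIs alone was not run, since there were 0 such cKO and 1 such fl/fl cells. No paired analysis was possible because each genotype has 1 library. Depth limits Ezr, Cnn2 and the small classes most.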
